A study of Mus musculus with 8 samples.

Results

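The stretch described here is the plus strand of mouse chromosome 7 just above the deletion that runs from Snrpn to Ube3a. In build mm9 it begins with the probe that ends at position 67147769 and reaches the end of the last member at 67300035. Its members are the 2420 plus-strand probes of a strand-specific array whose lower coordinate lies in that window of 152.3 kb, out of 53834 distinct probes in all. The window was selected on the red intensities of the deletion samples, which were higher there than in wild type, and its lower limit, called the border below, was placed where that gain began. Differences between deletion samples and wild type within it are therefore given as a description, without a test.

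Cerebral cortex was taken from C57BL/6 mice at postnatal day 0, and its RNA was labelled as first-strand cDNA and hybridized to 8 arrays that tile both strands of the locus. The samples were the maternal deletion (del s-u/+, n = 1), which lacks Snrpn to Ube3a on the maternal chromosome, the paternal deletion (del +/s-u, n = 1), double deletions (n = 2), wild-type polyA RNA (n = 2) and wild type (n = 2). All but the polyA samples were total RNA. The double deletions carry the maternal deletion together with a deletion of the Snrpn promoter on the paternal chromosome, designated 0.9 and 4.8. For each double deletion the title names one of these alleles and the genotype label the other, so the samples are numbered double deletion 1 and 2 and neither number stands for a known allele. PolyA RNA was purified from the RNA of both wild types. The number of animals per sample is not stated, so the spread between replicates may be technical. The files carry no gene names, so the labelled tissue could not be checked against markers of cortical cells. In tissue RNA, a change in the number of cells of a type and a change in RNA per cell cannot be told apart.

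Ube3a encodes an E3 ubiquitin ligase. In neurons it is expressed mainly from the maternal allele, and its paternal allele is silenced together with transcription of an antisense RNA, Ube3a-ATS. Ube3a lies on the plus strand, whereas Ube3a-ATS is read from the minus strand, as the far end of a very long RNA that starts from the paternal Snrpn promoter. A deletion from Snrpn to Ube3a joins the remaining 5′ part of Ube3a to sequence that normally lies beyond Snrpn, with the plus strand of both in the same orientation.

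The starts of these transcription units are shown because the window is set beside the first and the second is a start of Snrpn, whose promoter the double deletions lack on the paternal chromosome. The sequences are RefSeq's windows from 250 bases before to 50 bases after each start in build GRCm38.p6, which is not the build of the array, so their positions cannot be set against those of the probes. Each is written 5′ to 3′ on its own strand, and capitals mark the CG dinucleotides, a motif that reads the same on both strands. The start of Ube3a, chr7:59228500-59228799 on the plus strand, holds 29 of them. The start of Snurf, which RefSeq also gives as a start of Snrpn, chr7:60005150-60005449 on the minus strand, holds 7.
Ube3a: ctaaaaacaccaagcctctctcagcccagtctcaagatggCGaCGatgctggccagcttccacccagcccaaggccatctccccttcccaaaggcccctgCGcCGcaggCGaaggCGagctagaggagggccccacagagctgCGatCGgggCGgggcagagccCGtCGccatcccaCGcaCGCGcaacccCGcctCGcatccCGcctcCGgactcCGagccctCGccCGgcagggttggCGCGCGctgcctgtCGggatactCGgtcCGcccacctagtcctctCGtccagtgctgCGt
Snurf and Snrpn: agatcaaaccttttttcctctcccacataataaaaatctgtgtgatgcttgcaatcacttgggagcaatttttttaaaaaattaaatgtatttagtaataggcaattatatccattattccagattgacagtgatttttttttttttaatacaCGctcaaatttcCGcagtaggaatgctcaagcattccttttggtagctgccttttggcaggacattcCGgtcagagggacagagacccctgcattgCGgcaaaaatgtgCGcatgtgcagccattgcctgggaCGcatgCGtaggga
Of 32851 promoter windows of the same length, 94.6% held at least 1 CG dinucleotide and the median was 7. RefSeq lists 3 other starts of Snrpn above this one, at 42.8, 135 and 445 kb from it in GRCm38.p6, all on the minus strand. The first genes above Snurf in that annotation are the pseudogenes Gm18908, Gm7367, Gm18129 and Gm30196. Whether any of them falls in the window was not determined, and it is not known here whether the promoter deletions removed the printed sequence.

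The labels were checked on the strands that the deletions should change. Mean levels below are log2 red intensities after background correction, relative to that array's 75th percentile over the 3338 probes outside the locus. The sense strand of the deleted 3′ part of Ube3a (311 catalogue probes) had a level of 0.04 in the maternal deletion, 0.81 in the paternal deletion, 0.71 and 0.43 in the double deletions, and 0.99 and 0.98 in wild type. The minus strand of the deleted span had 2.14, -0.61, -0.14 and 0.98 in the same deletion samples, against 2.38 and 2.35 in wild type. The sense signal was lowest in the maternal deletion and the antisense signal lowest in the paternal deletion. The median red intensity of an array was 45 and 44 for polyA RNA and 98 to 161 for total RNA, and the median local background was 34 to 38.

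The members lie 59 bp apart at the median and are 45 to 60 bases long. They comprise 1035 catalogue probes, which have names of the array maker's catalogue, and 1385 custom tiling probes. Of all members, 2391 were well above background on all 4 deletion arrays, 1031 on both polyA arrays and 1453 on both wild-type total RNA arrays. Signal in the window was thus measured for nearly all members in the deletion samples and for a smaller set in wild type, where a level near background is a bound. A total of 23 members were saturated on at least 1 array.

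The plus strand of the window was higher in all 4 deletion samples than in both wild types. Over all members, the mean level was 1.40 in the maternal deletion, 0.94 in the paternal deletion, and 1.80 and 1.44 in double deletions 1 and 2. The double deletions averaged 1.62 ± 0.25 and the wild types 0.25 ± 0.002 (SD, n = 2 each), and no deletion array overlapped wild type. The gain over wild type was 1.15 (log2) in the maternal deletion, 0.69 in the paternal deletion and 1.37 in the mean of the double deletions.

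Catalogue probes gave larger gains than tiling probes. On catalogue probes the mean level was 0.77 in the maternal deletion, 0.20 in the paternal deletion, 1.21 and 0.77 in double deletions 1 and 2, and -0.63 and -0.62 in wild types 1 and 2. These are gains of 1.39, 0.82, 1.84 and 1.39. On tiling probes the gains were 0.97 in the maternal deletion, 0.59 in the paternal deletion, and 1.33 and 1.03 in the double deletions.

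This difference between the kinds of probe moved with the level in wild type. The 1623 members with a wild-type level below 0 had median gains of 1.52, 0.90, 2.04 and 1.52 in the maternal deletion, the paternal deletion and double deletions 1 and 2. For the 353 members with a wild-type level above 3 the medians were -0.07, 0.06, 0.10 and 0.14. Those bright members were mostly tiling probes, 312 of 353, and for 238 of them the reverse-complement probe on the minus strand was also above 3 in wild type. What these probes bind was not tested. Profiles along the window below use catalogue probes, a choice made after the data were seen.

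Single members show the range. The probe with the highest mean gain, CUST_11644_PI425394930 at chr7:67221326-67221385, had red intensities of 1405 in the maternal deletion, 501 in the paternal deletion, and 2076 and 1418.5 in the double deletions, against 76.5 and 82.5 in wild type. That is 12.7-fold, 5.30-fold and, for the mean of the double deletions, 15.4-fold over wild type on the scaled values. Those values include the offset added in the background correction, which makes such folds smaller than ratios of the signal above background. A_67_P06211501, chr7:67176608-67176666, followed with 738, 297, 1364.5 and 557 in the same order of deletion samples, against 43 and 40 in wild type. The third by mean gain was the member at the border itself, described below.

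At the other end, the 3 members with the highest wild-type level, CUST_11062_PI425394930, CUST_11852_PI425394930 and CUST_11963_PI425394930, were at or near saturation on all 6 total RNA arrays, so no difference can be read from them. Over all members the gain of the maternal deletion ran between 5th and 95th percentiles of -0.15 and 2.52, and that of the paternal deletion between -0.04 and 1.58. In double deletion 1 these percentiles were -0.06 and 3.11, and in double deletion 2 they were -0.02 and 2.46.

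A gain of at least 1 (log2) over the wild-type mean was found at 1348 of 2417 members in the maternal deletion, where 5.38% of all probes passed. It was found at 685 members in the paternal deletion (1.58% of all probes) and at 1544 in the mean of the double deletions (5.8% of all probes). At 1995 of 2417 members all 4 deletion arrays lay above both wild-type arrays, as they did at 12.7% of all probes. The median gain over these members was 1.16, 0.66, 1.61 and 1.19 in the maternal deletion, the paternal deletion and double deletions 1 and 2, and over all 53770 probes it was -0.08, -0.02, -0.16 and -0.06. The rule used this contrast, so nothing is read from these shares.

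The border was placed where the gain began, so a change across it follows from that choice. The values on each side are given as a description. The first member, A_67_P01527249, 60 bases that end at position 67147769, had red intensities of 705 in the maternal deletion, 312 in the paternal deletion, and 854 and 724 in the double deletions, against 47 and 46 in wild type. The nearest plus-strand probe below the border, A_67_P14810195 at chr7:67147632-67147683, had 200, 199, 208 and 229 in the same deletion samples, against 289 and 175 in wild type. Inside the border the deletion arrays did not overlap wild type, and outside it they fell between the wild types.

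In steps of 1 kb, the 13 catalogue probes of the first kilobase inside had mean levels of 2.35 in the maternal deletion, 1.59 in the paternal deletion, and 2.47 and 2.43 in the double deletions, against 0.50 and 0.41 in wild type. The 10 probes of the last kilobase outside had -0.62, -0.53, -0.58 and -0.57 in the deletion samples, against -0.49 and -0.60 in wild type. Over the last 10 kb outside (80 catalogue probes), the differences from wild type were -0.03 in the maternal deletion, -0.01 in the paternal deletion and -0.10 in the mean of the double deletions. With the border so placed, the gain was present in the first kilobase inside. In the last kilobase outside it was not detectable against the spread of the wild types.

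**Figure D1:**
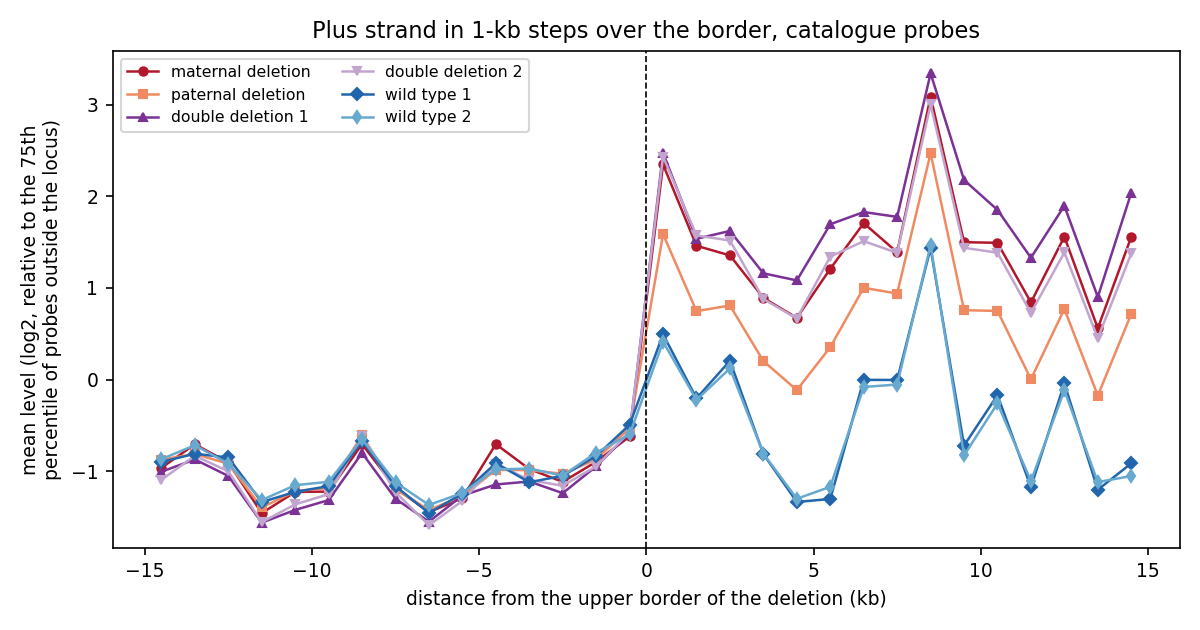
Mean level of plus-strand catalogue probes in 1-kb steps (y axis, log2 against outside probes) against distance from the border in kb (x axis, dashed line at 0), 1 line per total RNA array. Left of the border the 6 lines run together, and in the first kilobase to its right the deletion arrays sit at 1.59 to 2.47 and the wild types at 0.41 and 0.50.

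The gain extended to the far end of the window. In 15 of 15 bins of 10 kb, the mean of the catalogue probes was higher on all 4 deletion arrays than on both wild-type arrays. The window was chosen on this contrast and no share over all bins is given, so nothing is read from the count. Gains were also above 0 in all 41 plus-strand bins above the window. The lowest there were 0.15 in the maternal deletion, 0.01 in the paternal deletion, and 0.07 and 0.13 in double deletions 1 and 2. In the bin that starts 140 kb from the border, the mean level was 0.56 in the maternal deletion, 0.01 in the paternal deletion, 1.07 and 0.73 in the double deletions, and -0.64 and -0.62 in wild type. On this scale double deletion 1 was the highest and the paternal deletion the lowest of the deletion arrays in all 15 bins. Double deletion 2 and the maternal deletion changed places along the window, with double deletion 2 above in 7 of 15 bins and below for the last time in the bin at 110 kb.

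**Figure D2:**
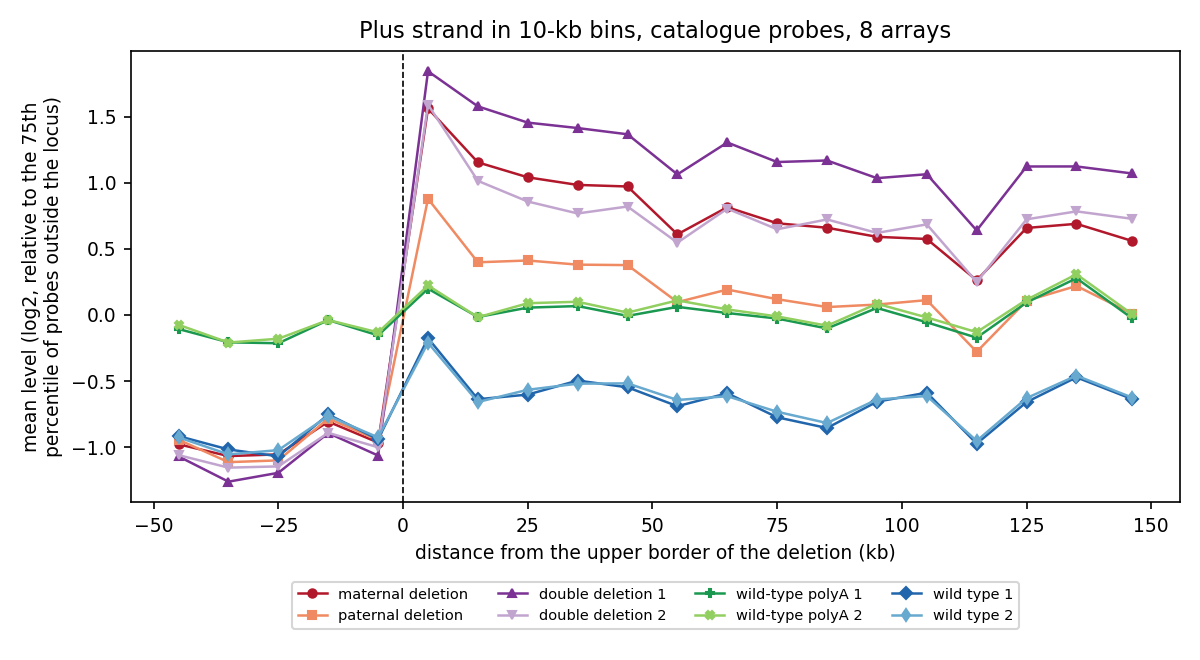
Mean level of plus-strand catalogue probes in 10-kb bins (y axis, log2 against outside probes) against distance from the border in kb (x axis, dashed line at 0), 1 line for each of the 8 arrays. The deletion arrays lie above both wild-type total RNA arrays in all 15 bins of the window, with double deletion 1 at the top and, on this scale, the paternal deletion lowest of the 4.

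The members named here were picked as the farthest ones well above background on every deletion array. Their signal on those arrays therefore follows from the choice. CUST_12359_PI425394930, the farthest member at 152.27 kb, had red intensities of 285 in the maternal deletion, 129 in the paternal deletion, and 506.5 and 317 in the double deletions, against 47 and 45 in wild type. The next, A_67_P06211735 at 152.24 kb, was not well above background on either wild-type array. It was at least 2.99-fold higher in the maternal deletion and at least 2.00-fold higher in the paternal deletion. In the mean of the double deletions it was at least 3.97-fold higher. For these bounds the wild-type level was taken as the lowest signal among probes well above background or the probe's own, whichever was higher. They were taken on the scaled values, so the offset of the background correction makes them smaller too. The third, CUST_12358_PI425394930, had 316.5, 183, 593 and 339.5 in the deletion samples, against 94 and 94.5 in wild type. The first probe beyond the upper limit, CUST_12360_PI425394930, had 584, 307.5, 1086.5 and 599 in the deletion samples, against 129 and 118 in wild type.

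Within the window the gain was largest in the first 50 kb on all 4 deletion arrays, and its course beyond depended on the probes counted. On catalogue probes, the maternal deletion gained 1.64 within 50 kb (303 probes), 1.40 between 50 and 100 kb (317 probes) and 1.21 beyond 100 kb (415 probes). The paternal deletion gained 0.99, 0.82 and 0.69 in the same zones. Double deletion 1 gained 2.03, 1.87 and 1.67, and double deletion 2 gained 1.51, 1.39 and 1.30. Over all members the gains in these zones were 1.34, 1.06 and 1.06 in the maternal deletion, 0.82, 0.65 and 0.61 in the paternal deletion, 1.70, 1.47 and 1.48 in double deletion 1, and 1.28, 1.12 and 1.16 in double deletion 2. On that wider set, the gain was lower past 50 kb than before it and then nearly level. Beyond 100 kb it was slightly lower again in the paternal deletion and slightly higher in double deletion 2.

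Over all members, the gain within 50 kb exceeded that beyond 100 kb by 0.29 in the maternal deletion, 0.21 in the paternal deletion and 0.17 in the mean of the double deletions. Each of these differences was smaller than the gain beyond 100 kb. On catalogue probes they were 0.43, 0.30 and 0.28. A straight line through the catalogue probes fell by 0.40 per 100 kb in the maternal deletion, by 0.28 in the paternal deletion, by 0.32 in double deletion 1 and by 0.21 in double deletion 2. Pearson's r between gain and distance was -0.25, -0.26, -0.17 and -0.13 across 1035 probes, which share arrays, wild-type values and in part their sequence with neighbours, so most of the spread between probes did not go with distance.

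The decline was also measured on a linear scale, without the offset of the background correction. The median red intensity above local background is given here in percent of the 75th percentile of the same quantity outside the locus. On catalogue probes of the window it was 189 in the maternal deletion, 96.2 in the paternal deletion, 291.7 and 189.2 in the double deletions, and 8.7 and 8.2 in wild type. The excess over wild type beyond 100 kb was 55.5% of that within 50 kb in the maternal deletion, 60.1% in the paternal deletion, and 62.4% and 72.2% in the double deletions. The excess of the paternal deletion over the whole window was 48.6% of that of the maternal deletion.

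On the scale of outside probes, the double deletions differed more from each other than their mean differed from the maternal deletion. Over all members, double deletion 1 was 0.39 above the maternal deletion and double deletion 2 was 0.04 above it, a mean of 0.22 against an SD of 0.25 between the 2 replicates. On catalogue probes the differences were 0.44 and -0.0015. The mean difference over all members depended on the scale. It was 0.65 with each array scaled to the 75th percentile of all its probes, a scale that adds 0.43 to it. After quantile normalization it was 0.46. The spread between the double deletions on those scales is not given here. Since each promoter deletion is present once, the difference between the alleles and the spread between samples cannot be told apart.

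The maternal deletion exceeded the paternal deletion by 0.46 over all members and by 0.57 on catalogue probes. This order depended on the scale. With each array scaled to the 75th percentile of all its probes the difference was -0.75, and after quantile normalization it was -0.15. The scale on all probes includes the minus strand of the locus, which was low in the paternal deletion as given above, and compared with the scale on outside probes it adds 1.25 to every difference of the paternal deletion from wild type and 0.03 to that of the maternal deletion. The same shift holds for every difference of the paternal deletion from wild type given here, those of the minus strand and of the last 10 kb before the border included. The gain over wild type stayed above 0 in the maternal, paternal and double deletions under every alternative run.

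Sense probes of the remaining 5′ part of Ube3a (43.4 kb, the last of them ending at position 66526912) lie on the lower side of the same deletion. Its difference from wild type was small over the first 20 kb, except in double deletion 2, and larger after it on all 4 deletion arrays. In its first 20 kb (193 catalogue probes) the level was 1.07 in the maternal deletion, 0.97 in the paternal deletion, 1.04 and 1.66 in the double deletions, and 0.91 and 0.86 in wild type. After the first 20 kb (190 catalogue probes) it was 1.54, 1.17, 1.73 and 1.69 in the deletion samples, against 0.44 and 0.40 in wild type. Regions were chosen with earlier results of these data known, so the contrast across the cut at 20 kb is given as a description.

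In its last 10 kb before the deletion (85 catalogue probes) the differences from wild type were 1.17 in the maternal deletion, 0.79 in the paternal deletion, and 1.33 and 1.13 in the double deletions. The first 10-kb bin of the window had gains of 1.75, 1.07, 2.03 and 1.78 in the same samples. The order of the 4 samples was the same on both sides except for the maternal deletion and double deletion 2, which changed places. Wild type lay nearer to background in the window than in the 5′ part. On the linear scale above, in percent, the excess over wild type within 50 kb of the border was 261.4, 118.0, 383.2 and 224.9. In the last 10 kb of the 5′ part it was lower, at 159.0, 108.7, 236.0 and 164.4. After the first 20 kb of the 5′ part it was 300.6, 178.9, 359.6 and 349.9, higher than in the window except in double deletion 1.

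Against the whole 5′ part, the window differed in how the double deletions were ordered. Double deletion 1 gained 1.84 in the window and 0.72 in the 5′ part, whereas double deletion 2 gained 1.39 in the window and 1.01 in the 5′ part. In the first 20 kb of the 5′ part the gains were 0.15 in double deletion 1 and 0.77 in double deletion 2. The difference between the 2 samples was not tested.

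**Figure D3:**
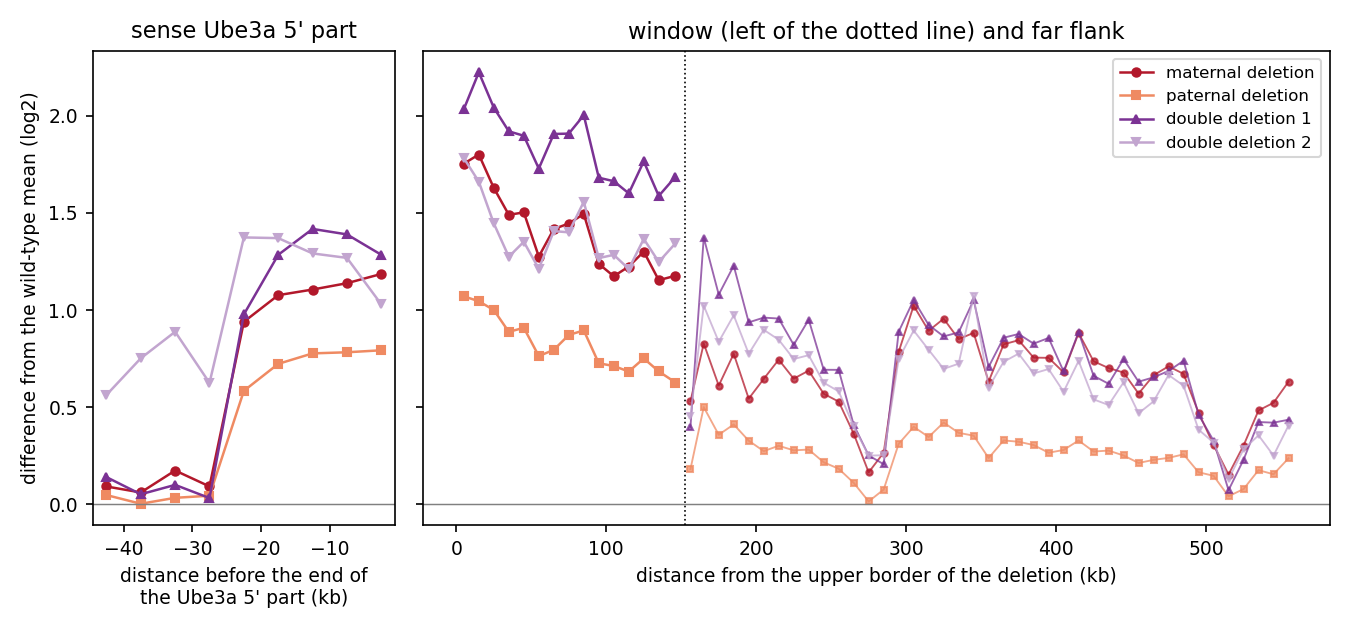
Difference from the wild-type mean (y axis, log2) of plus-strand catalogue probes on the 4 deletion arrays. The left panel shows the 5′ part of Ube3a in 5-kb bins before the deletion, the right panel the window and the far flank in 10-kb bins, with distance in kb on the x axes. Gains are near 0 in the first bins of the 5′ part except in double deletion 2, reach 1.07 to 2.03 in the first bin of the window and stay above 0 to the end of the far flank.

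Above the window, the plus strand of the far flank, with probes that start at positions 67300086 to 67700706, was also higher than wild type, by less. Its 2169 catalogue probes gained 0.65 in the maternal deletion, 0.26 in the paternal deletion, and 0.72 and 0.61 in the double deletions. Between 150 and 200 kb from the border, just past the window, the catalogue probes gained 0.67 in the maternal deletion, 0.38 in the paternal deletion, and 1.09 and 0.87 in the double deletions. The gain beyond 100 kb within the window was 1.21, 0.69, 1.67 and 1.30 in the same samples, higher on each array than that just past the upper limit. The window was chosen on this gain, so the difference across its upper limit is given as a description. Between 200 and 250 kb the gains were 0.66, 0.27, 0.86 and 0.76. The gain did not decline evenly. Between 250 and 300 kb from the border it was 0.46 in the maternal deletion and 0.16 in the paternal deletion, and between 300 and 350 kb it was 0.93 and 0.38. The double deletions had 0.52 and 0.47 in the first of these stretches, and 0.96 and 0.82 in the second. Between 350 and 400 kb the double deletions gained 0.83 and 0.70, against 0.76 in the maternal deletion, whose gain lay between theirs.

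**Figure D4:**
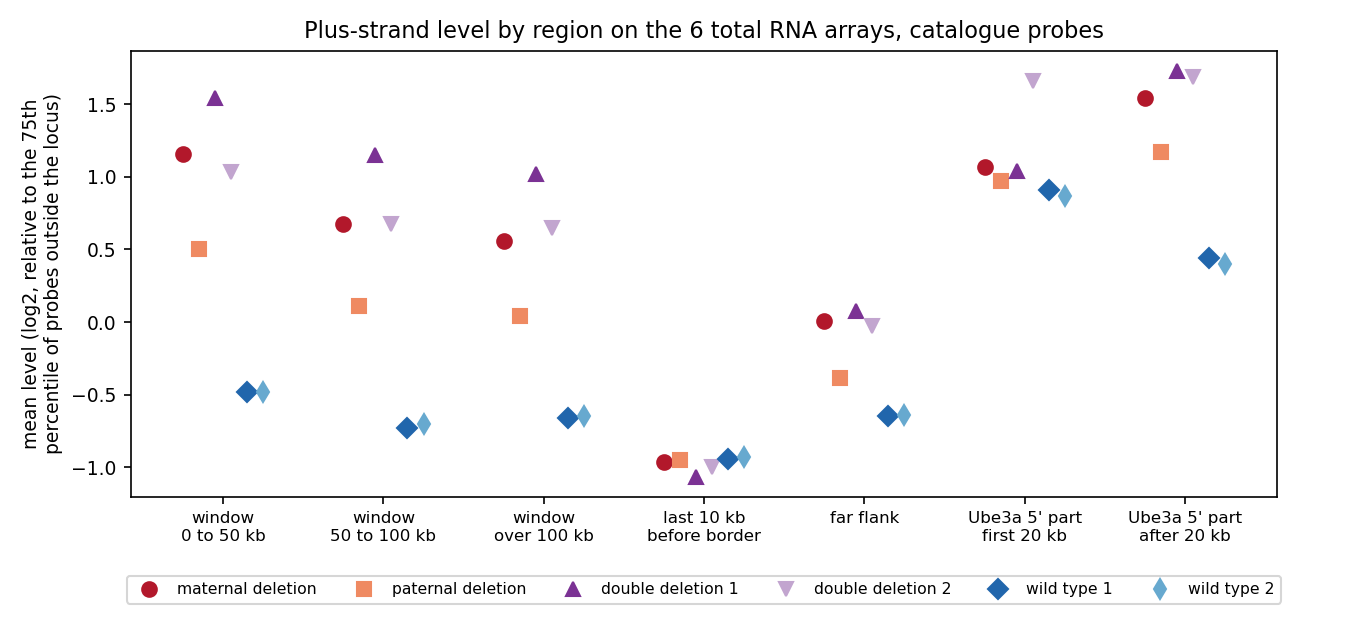
Mean level of plus-strand catalogue probes (y axis, log2 against outside probes) in 7 regions (x axis), 1 point per total RNA array. The deletion arrays lie above both wild types in the 3 zones of the window, in the far flank and in the 5′ part of Ube3a, whereas in the last 10 kb before the border all 6 arrays lie between -1.06 and -0.93.

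On the scale of outside probes, the minus strand of the same window did not share the gain. Every member has a reverse-complement probe at the same coordinates. Over the 1035 catalogue pairs, the minus-strand level was -0.13 in the maternal deletion, -0.14 in the paternal deletion, -0.55 and -0.01 in double deletions 1 and 2, and -0.07 and -0.09 in wild type. On the plus strand of the same pairs no deletion array overlapped wild type, whereas on the minus strand only double deletion 1 lay well apart from the others.

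Within 50 kb of the border the minus strand differed most between the double deletions. There the difference from wild type was -0.80 in double deletion 1 and 0.18 in double deletion 2. The plus strand of the same zone gained 2.03 and 1.51. In the maternal deletion the minus strand differed from wild type by -0.04 and in the paternal deletion by -0.12.

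**Figure D5:**
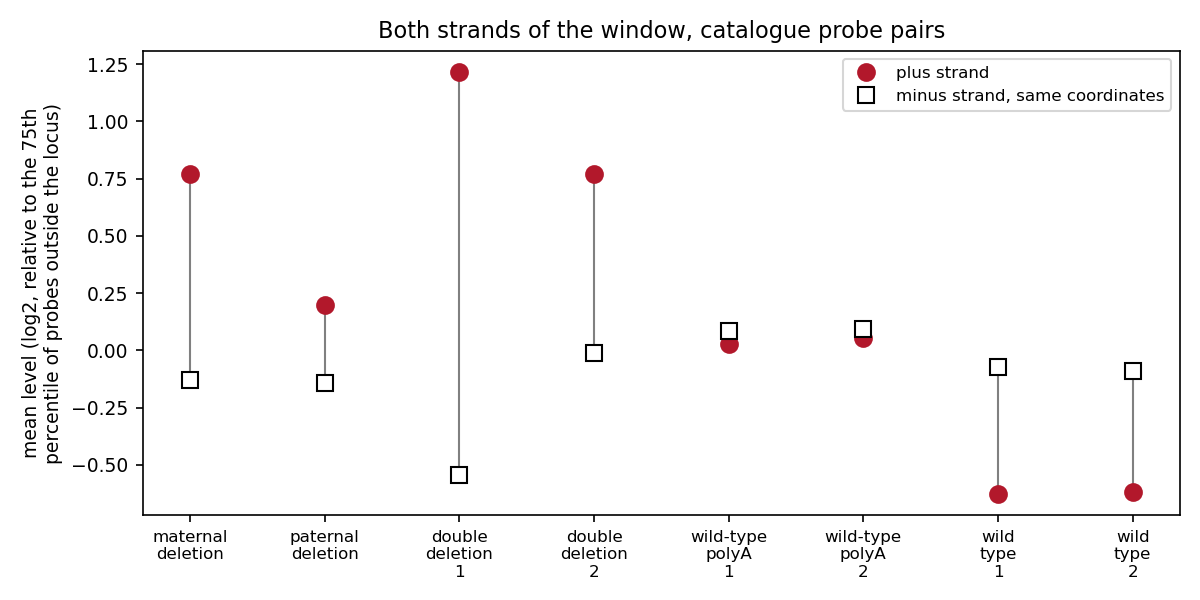
Mean level (y axis, log2 against outside probes) of the 1035 catalogue probes of the window on the plus strand (filled circles) and of their reverse-complement probes on the minus strand (open squares), for each of the 8 arrays (x axis). The plus strand sits at 0.20 to 1.21 on the 4 deletion arrays, against -0.63 and -0.62 in wild type, and the minus strand at -0.55 to -0.01 on the deletion arrays, against -0.07 and -0.09 in wild type.

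PolyA RNA of wild type did not enter the choice of the window, but the total RNA of the same wild types did, since the window was chosen for its gain over them. The comparison of polyA with total RNA is therefore also given as a description, and its calls support nothing about the window. Over all members with values on the 4 arrays, the mean level was 0.67 and 0.65 in polyA RNA, against 0.25 and 0.26 in total RNA, a difference of 0.41 (SE 0.02, n = 2 each). Of the 15 bins of 10 kb in the window, 13 were higher in polyA RNA and 0 lower (limma, adjusted over all units), where 40.7% of all bins were higher and 37.4% lower. The 2 bins that did not pass start at 30 and 40 kb, with differences of -0.02 and 0.11. On catalogue probes the size of the difference was not particular to the window. On those of the plus strand it was 0.66 in the window, 0.66 in the far flank, 0.58 in the deleted span outside Ube3a and 0.79 in the last 10 kb before the border. In Ube3a itself it was -0.48 in the 5′ part and 0.05 in the 3′ part. Over all probes, where the window had 0.41, it was 0.27 in the far flank and 0.61 in the last 10 kb before the border. In the 5′ part of Ube3a it was -0.51 over all probes. The median over bins of 10 kb, also of all probes, was 0.17 on the plus strand (178 bins) and 0.03 on both strands (356 bins). In the plus-strand bins of the deleted span above Ube3a (54 bins) it was 0.16.

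The direction depended on the probes counted. Among members well above background on all 4 arrays the difference was -0.36. Red intensities in polyA RNA lay close to background: the median over members was 38 on both polyA arrays, over a local background of 34, against 56 and 53.3 in total RNA over 38 and 37. The first member had 39 and 39.5 in polyA RNA, against 47 and 46 in total RNA, and yet its scaled level was 1.04 higher in polyA RNA (SE 0.08). The 75th percentile of the red intensity of outside probes was 47 and 46 on the polyA arrays, against 140.3 and 135 on the wild-type total RNA arrays.

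Single probes went both ways. Of 1466 members tested, 657 were higher in polyA RNA and 413 lower (limma, adjusted over 43784 probes), where 32% of all probes were higher and 40.9% lower. Scaled on all probes the calls were 1228 higher and 123 lower, and after quantile normalization 555 higher and 158 lower. The scale on all probes adds 1.34 to every difference between polyA and total RNA. With only probes well above background on all 4 arrays the balance turned, with 252 higher and 394 lower of 1015 tested. In the authors' matrix it was 201 higher and 173 lower of 545 tested. The share of all probes called is not given for these alternatives, so their counts say nothing particular to the window. The median difference was 0.23 over the members tested and -0.14 over all probes tested. The largest increase past the threshold was at CUST_11106_PI425394930, with red intensities of 3952 and 3657 in polyA RNA, against 2665.5 and 2106 in total RNA (log2 difference 1.95, SE 0.13). CUST_11558_PI425394930 and A_67_P01527391 followed with differences of 1.80 and 1.69.

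The largest decreases were at CUST_11861_PI425394930, CUST_11335_PI425394930 and CUST_11337_PI425394930, by -4.93, -3.96 and -3.86. The first of these had red intensities of 234 and 194 in polyA RNA, against 20030 and 14824 in total RNA. All 3 were bright on the deletion arrays too: CUST_11861_PI425394930 had 23974 in the maternal deletion, 23482 in the paternal deletion, and 24518 and 17471.5 in the double deletions. Their mean gains over wild type were 0.26, 0.08 and 0.10, small beside those of most members.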

How the data were processed

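The authors deposited, for each array, the scanner software's linear red and green intensity per spot, not normalized between arrays. Per the file headers the software was Agilent Feature Extraction 10.7.3.1 and the design used mm9; version 10.9 is named in the submitters' processing notes. The labels name the red median intensity as the value. Of 57933 spots that are not controls, 53834 distinct probes were made by averaging, without outlier spots. Red intensities were corrected with normexp (offset 50, limma 3.58.1, R 4.3.3), put on log2, and the 75th percentile over probes outside chr7:65790585-67800765 was subtracted on each array.

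The members, regions and comparisons were chosen with earlier results of these data known. Named probes are the nearest on each side of the border, the 3 with the highest mean gain, the 3 with the highest wild-type level, the 3 farthest with signal, and the 3 largest increases and decreases in polyA RNA. The probes around the upper limit were added. Gains are means of probe differences from the wild-type mean. PolyA and total RNA were compared with limma (two-sided, Benjamini-Hochberg, threshold 0.05) over 356 bins of 10 kb with at least 3 probes and the window, and over 43784 probes well above background on both arrays of either group. The fits were designed as tests of the window, but the wild-type total RNA they use also entered its choice, so estimates and counts of calls are given as a description.

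PolyA RNA came from the RNA of the same-numbered wild type, so the numbers pair the samples. The correlation of their deviations was 0.19 over the probes tested. The authors' series matrix, an alternative, holds the red intensity of 18408 features times 1 factor per array; none of them lies outside the locus, so its own scale was kept. How its factors were chosen is not known here. All arrays share 1 slide and scan. The number of arrays limits the precision. The marker lists could not be applied without gene names.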

Additional observations from a re-analysis of the deposited data

How the results depend on the processing

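The gains over wild type in the maternal, paternal and double deletions stayed above 0 under every alternative run, and so did their excess near the border over that beyond 100 kb. Gains are given here in the order maternal, paternal, double. With each array scaled on all probes they were 1.18, 1.94 and 1.83, the double exceeded the maternal deletion by 0.65, and the maternal minus the paternal deletion was -0.75, because this scale adds 1.25 to the paternal and 0.03 to the maternal deletion. With quantile normalization the maternal and paternal gains were 0.88 and 1.03, their difference -0.15, and the near excess 0.26 and 0.33; the cause was not tested. Without background correction the gains were 1.40, 0.88 and 1.63, the maternal minus paternal difference 0.52 and the paternal near excess 0.22. With background subtracted they were 2.25, 1.58 and 2.53, the difference 0.67, and the near excess 0.24, 0.28 and 0.043. In the authors' matrix they were 1.71, 0.99 and 2.02, the difference 0.72, and the near excess 0.49, 0.36 and 0.32. With only probes well above background the maternal and paternal gains were 0.97 and 0.58, their difference 0.39, and the near excess 0.19, 0.14 and 0.072. With outlier spots kept, the paternal gain was 0.68 and the difference 0.47. On catalogue probes alone, a choice made after the data were seen, the maternal and paternal gains were 1.39 and 0.82, the difference 0.57, and the near excess 0.43, 0.30 and 0.28. Leaving out 1 sample gave gains of 1.147 to 1.15, 0.686 to 0.689 and 1.19 to 1.54, near excesses of 0.28 to 0.29, 0.20 to 0.22 and 0.11 to 0.22, and a double minus maternal difference of 0.04 without double deletion 1 and 0.39 without double deletion 2.

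The polyA difference of the window was 0.41 with the replicate block as well (fitted with limma) and 0.40 to 0.42 with 1 sample left out. Its size depended on the processing. It was 1.75 scaled on all probes, 1.49 with background subtracted and 0.64 without background correction. In the authors' matrix it was 0.31, and after quantile normalization 0.25. With only probes well above background on all 4 arrays, where fewer members were tested, it was -0.36. Without the filter on dim probes 2052 of 2417 members tested were called, 1629 of them higher. With the filter 1070 of 1466 were called, 657 of them higher, and with the replicate block 1095 of 1466, 665 of them higher. In the main fit 44.8% of members tested were called higher and 28.2% lower, against 32% and 40.9% of all probes tested. The share over all probes is not given for the other settings, so nothing about the window is read from these counts. Signal over background limits what can be read: 46.7% and 44.3% of members were well above background in polyA RNA, against 63.0% and 62.6% in wild-type total RNA, and the level of the others is a bound.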
